A study of Oryza sativa with 4 samples.

Results

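The genes of iron uptake and mugineic acid synthesis were followed in the seedling transcriptome of the rice mre11 mutant. They were 10 loci picked by locus number, NAS1, NAS2, NAS3, NAAT1, DMAS1, TOM1, YSL15, IRT1, IRT2 and IRO2, out of the 55986 gene models in the deposited counts. RNA had been prepared from 7-day-old seedlings of wild type (WT), which was Oryza sativa japonica Dongjin, and of mre11, a line with a T-DNA inserted in an intron of the DNA repair nuclease gene Mre11. Each genotype had 2 samples, each a pool of plants, and no seedling was given another treatment in the labels. The seedlings came from 1 insertion line, and the iron supply of the plants was not given in the sources used here.

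Grasses release phytosiderophores of the mugineic acid family from their roots, which bind ferric iron in the soil, and then take up the iron complex. Nicotianamine synthases (NAS) join molecules of S-adenosylmethionine into nicotianamine, nicotianamine aminotransferase (NAAT) removes its amino group, and deoxymugineic acid synthase (DMAS) reduces the product to deoxymugineic acid. Rice can also take up ferrous iron through transporters of the IRT type. Nicotianamine itself chelates metals inside the plant, so NAS genes are also used in organs that release no phytosiderophore.

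The counts on genes summed to between 12753324 and 19004825 per library, and the mre11 libraries were the deeper ones. Mre11 (LOC_Os04g54340) itself had 306 and 471 counts in WT and 132 and 118 in mre11, which fits the labels. Of the 10 members, 7 passed the filter on low counts and were tested within a total of 24470 genes in edgeR's quasi-likelihood test. A gene was called when its p-value, adjusted by the Benjamini-Hochberg method over all tested genes, was under 0.05 and its difference was at least 2-fold. TOM1, YSL15 and IRT2 were below the filter. Levels per library are given as CPM, that is counts relative to library size with edgeR's TMM correction, and fold changes are mre11 over WT. Since 2 against 2 samples allow no permutation p under 0.33, the p-values rest on the spread shared across genes. Whether the samples came from separate growths of plants was not stated, and the spread may in part be technical.

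NAS2 and NAS3 were higher and NAAT1 was lower in mre11. Across all tested genes 12% were called higher and 9.31% lower, 21.3% in either direction. The calls were thus 56.3% higher ones, and 68.9% when libraries were scaled by their size alone. Among the members 2 of the 7 tested were called higher and 1 lower, and NAS2 had passed the filter only through its mre11 libraries, so the count of calls says little about the group. DMAS1 lay lower in mre11 by less than 2-fold. NAS1, IRT1 and IRO2 did not pass the test, and their groups overlapped. The mre11 libraries lay above both WT libraries for 2 of the 7, below them for 2 and overlapped for 3, beside 37.5%, 35.7% and 26.8% of all tested genes. The same 3 members passed at an unadjusted p under 0.05 with 2-fold, as did 24.3% of all genes. At an adjusted p under 0.01 NAAT1 alone passed (12.7% of all genes), and with no limit on the fold DMAS1 joined the 3 (37.1% of all genes).

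**Figure D1:**
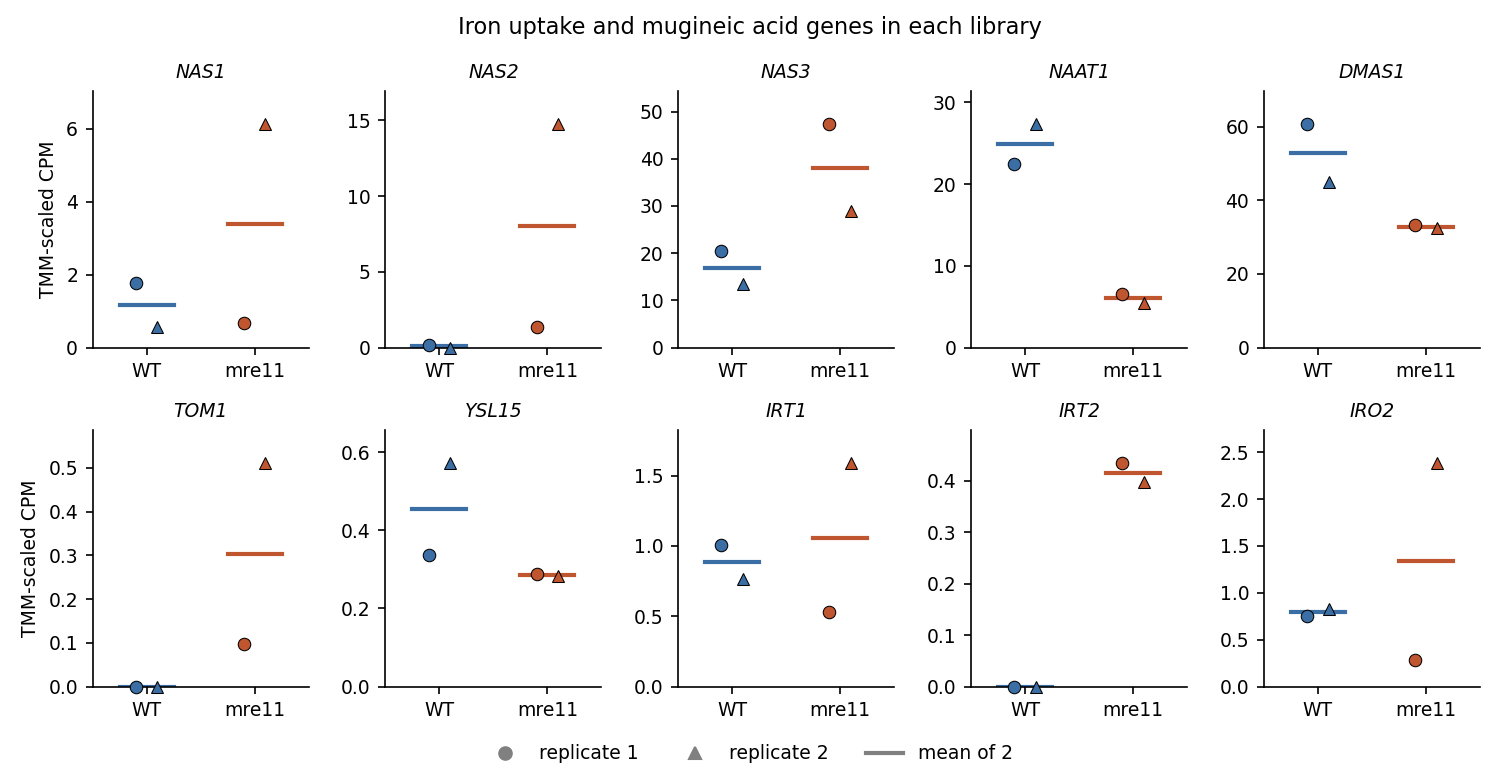
TMM-scaled CPM of the 10 members in each of the 4 libraries, with circles for replicate 1, triangles for replicate 2 and a line at the mean, each panel on its own axis from 0. NAAT1 and DMAS1 sit below WT in each mre11 library, while NAS1, NAS2, TOM1, IRT1 and IRO2 are highest in mre11 replicate 2.

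The synthesis of nicotianamine is the first step of the path, and its 3 genes share 1 KEGG orthology identifier in the deposited annotation, which no other locus carries. NAS3 (LOC_Os07g48980, chromosome 7) is known in rice for its expression in shoots and vascular tissue. It had 243 and 211 counts in WT, against 982 and 510 in mre11. This was 16.9 ± 4.93 CPM (SD, n = 2) in WT and 38.1 ± 13.0 CPM (SD, n = 2) in mre11. Each mre11 library was above each WT library, with a log2 fold change of 1.18 ± 0.302 (standard error) and an adjusted p of 0.0246 in edgeR's test. With 1 library left out, a genotype has a lone sample that is assumed to vary like the other genotype, and fewer genes are called in all. In these fits NAS3 was not past the threshold without WT replicate 1 (log2 fold change 1.5, edgeR's adjusted p 0.0578), without WT replicate 2 (0.90, 0.148) or without mre11 replicate 1 (0.79, 0.0565), although it stayed above 0.

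NAS2 (LOC_Os03g19420, chromosome 3), a root gene that responds to iron deficiency, was hardly seen in WT. WT had 2 and 0 counts, against 28 and 260 in mre11. In CPM this was 0.168 and 0 in WT and 1.35 and 14.8 in mre11, so the groups did not overlap, yet mre11 replicate 2 was 10.9 times as high as replicate 1. The fitted log2 difference was 6.63 ± 1.62 (standard error), with an adjusted p of 0.0214 in edgeR's test. With only 2 WT counts, its size is poorly set. The ratio of the summed counts, scaled by library, was 104, with an exact 95% interval of 28.5 to 861 that covers counting error only. In the same test the log2 fold change was 10.17 without WT replicate 1 (adjusted p = 0.097), 5.51 without WT replicate 2 (0.141) and 4.05 without mre11 replicate 2 (0.0507), none of them past the threshold. Without mre11 replicate 1 it was 7.51 and was called (adjusted p = 0.000772).

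NAS1 (LOC_Os03g19427, chromosome 3) is the neighbour of NAS2, with 0 genes between them in the RefSeq gene table, and codes for a closely related synthase. It had 21 and 9 counts in WT and 14 and 108 counts in mre11. Replicate 1 of mre11 lay between the WT libraries, and replicate 2 lay 9.08 times above it. The log2 fold change of 1.57 ± 1.03 (standard error) did not pass, at an adjusted p of 0.267 in edgeR's test. Its direction was set by mre11 replicate 2, without which the log2 fold change was -0.75 (adjusted p = 0.591), while without mre11 replicate 1 it was 2.44 and was called (adjusted p = 0.0242 from edgeR). How the authors' counting treated reads that match both copies is not given in the sources used here, so the division between NAS1 and NAS2 is uncertain. With the counts of NAS1 and NAS2 added up as 1 gene, the log2 fold change was 3.24 (adjusted p = 0.063 from edgeR), which is not past the threshold.

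The share of NAS1 in the reads of this pair lay higher in both WT libraries than in both mre11 libraries. NAS1 took 91.3% of the reads of the pair in WT replicate 1 (21 of 23 counts, exact 95% interval 72% to 98.9%) and 100% in WT replicate 2 (9 of 9, 66.4% to 100%). In mre11 it took 33.3% in replicate 1 (14 of 42, 19.6% to 49.5%) and 29.3% in replicate 2 (108 of 368, 24.7% to 34.3%). The mre11 libraries thus held similar shares although their totals for the pair were 42 and 368 counts. No test was run on these shares, and the intervals cover counting error only.

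Levels of different genes are compared here as the deposited RPKM, reads scaled to gene length and library size. The 3 NAS genes together had 13.0 and 8.25 RPKM in WT and 33.2 and 32.9 RPKM in mre11. The mean sum was 10.6 ± 3.34 RPKM (SD, n = 2) in WT and 33.1 ± 0.226 RPKM (SD, n = 2) in mre11, a ratio of 3.11. RPKM carries no TMM correction. In CPM, which does, the sum was 18.2 ± 5.89 in WT and 49.6 ± 0.319 in mre11 (SD, n = 2), a ratio of 2.73. This sum was looked at after the values of its genes had been seen and was not tested. The mre11 libraries had nearly the same sum with different parts. NAS3 made up 95.9% of the NAS counts in mre11 replicate 1 (982 of 1024, exact 95% interval 94.5% to 97%) and 58.1% in replicate 2 (510 of 878, 54.7% to 61.4%). In the WT libraries NAS3 had 91.4% and 95.9% of them.

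**Figure D2:**
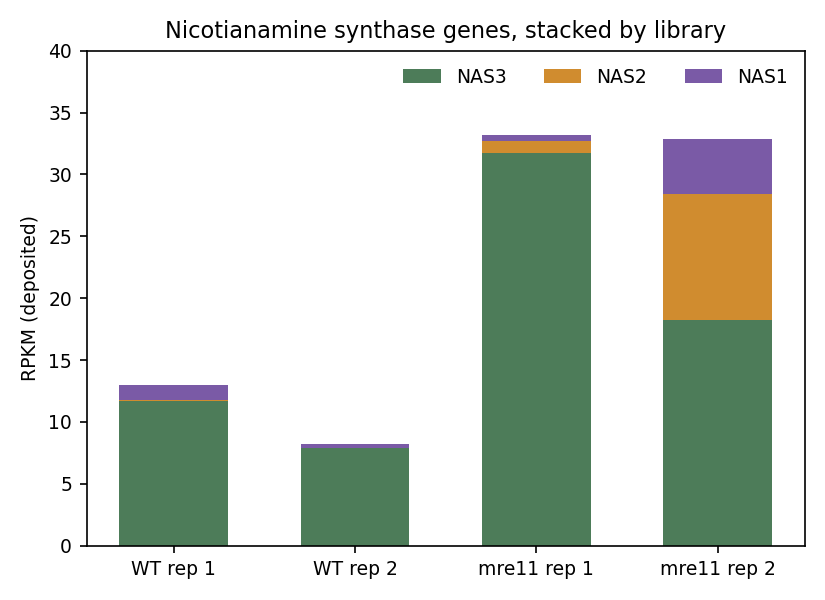
Deposited RPKM of NAS1, NAS2 and NAS3, stacked for each library. The stacks reach 13.0 and 8.25 in WT and 33.2 and 32.9 in mre11, and NAS3 fills most of each stack, 58.1% of the counts in mre11 replicate 2.

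NAAT1 (LOC_Os02g20360, chromosome 2) carries out the step after nicotianamine, from which the path to phytosiderophores branches off. It was the member with the smallest adjusted p. It had 268 and 430 counts in WT and 137 and 96 in mre11, or 24.9 ± 3.43 CPM (SD, n = 2) and 6.03 ± 0.819 CPM (SD, n = 2). Both mre11 libraries were far below both WT libraries. The log2 fold change of -2.04 ± 0.215 (standard error) had an adjusted p of 0.00175 in edgeR's test, a 4.13-fold lower level. When 1 library was omitted it ran from -2.19 to -1.90. Its call held under all 15 alternatives in which it was refitted. The annotation gives NAAT1 the KEGG orthology identifier of tyrosine aminotransferases. It shares the identifier with 6 other loci. Of the 6 tested loci with it 1 was higher and 1, NAAT1 itself, lower, beside 12% and 9.31% of all tested genes.

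DMAS1 (LOC_Os03g13390, chromosome 3) makes deoxymugineic acid. Its deposited GO terms speak of redox homeostasis and oxidoreductase activity and not of nicotianamine, and its name comes from the list of members. It was the most abundant member in WT, with 723 and 705 counts there and 690 and 570 in mre11. In CPM this was 60.7 and 44.8 in WT and 33.3 and 32.3 in mre11, so the groups did not overlap. The log2 fold change of -0.68 ± 0.18 (standard error) had an adjusted p of 0.0272 in edgeR's test, a 1.60-fold lower level that is under the 2-fold limit. DMAS1 had a log2 fold change between -0.89 and -0.46 in every alternative fit, but its adjusted p rose above 0.05 in some of them. It was 0.0643 with libraries scaled by size alone, 0.149 without WT replicate 1, 0.0547 without mre11 replicate 2, and 0.0727 and 0.0752 in limma's tests on log2 RPKM with pseudocounts of 1 and 0.1.

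The values above can also be written as ratios between the steps of synthesis. Per library, the RPKM of NAAT1 was 0.772 and 1.51 times the sum of the NAS genes in WT, and 0.103 and 0.0809 times in mre11. The RPKM of DMAS1 was 3.8 and 2.31 times that of NAAT1 in WT and 7.09 and 8.36 times in mre11. These ratios are built from the values of NAS1, NAS2, NAS3, NAAT1 and DMAS1 given above. Their separation between genotypes follows from those values and adds no separate result.

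**Figure D3:**
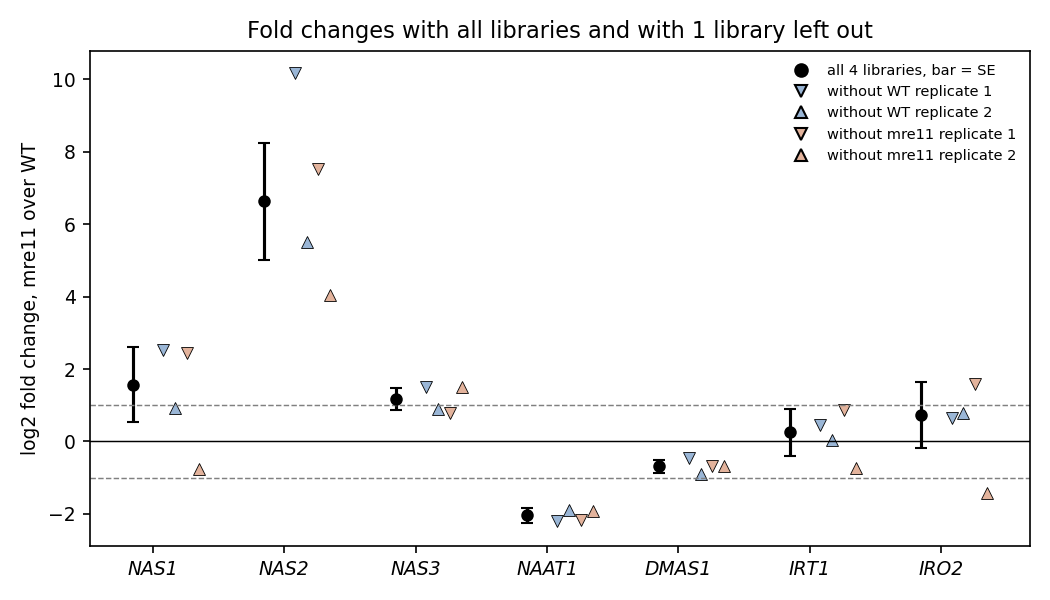
Log2 fold change, mre11 over WT, of the 7 tested members. Black points are fits with all 4 libraries, bars are standard errors, coloured triangles are fits without 1 library, and dashed lines mark 2-fold. NAAT1 lies between -2.19 and -1.90 in all of these fits, whereas NAS1, IRT1 and IRO2 fall below 0 without mre11 replicate 2.

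The transporters were at the limit of detection. TOM1 (LOC_Os11g04020, chromosome 11) exports deoxymugineic acid from root cells. It had 0 counts in each WT library and 2 and 9 in the mre11 libraries. Against a floor of 3 counts over the WT group, its summed mre11 counts, scaled by library, were 2.64 times as high. That ratio leaves counting error aside and rests on mre11 replicate 2, since replicate 1 with 0.0964 CPM lay under the floor. Fitted without a filter on low counts, its adjusted p was 0.124 in edgeR's test. YSL15 (LOC_Os02g43410, chromosome 2), the root transporter of the iron complex, had 4 and 9 counts in WT and 6 and 5 in mre11. The scaled ratio of its summed counts was 0.61, with an exact 95% interval of 0.247 to 1.48, so that no difference was detectable at this depth.

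Ferrous iron uptake was also weakly expressed. IRT1 (LOC_Os03g46470, chromosome 3), the main ferrous iron transporter of rice roots, had 12 and 12 counts in WT and 11 and 28 in mre11. Its log2 fold change of 0.25 ± 0.652 (standard error) had an adjusted p of 0.783 in edgeR's test, and without mre11 replicate 2 it was -0.72 (adjusted p = 0.587). IRT2 (LOC_Os03g46454, chromosome 3), its close relative, had 0 counts in each WT library and 9 and 7 in the mre11 libraries. Both mre11 libraries were alike here, and their summed and scaled counts were 3.84 times the same floor of 3 counts, counting error aside. Its adjusted p was 0.0523 in edgeR's test without a filter on low counts. IRT1 and IRT2 lie near each other, with 2 genes between them in RefSeq, and reads that match both could not be separated here. With the counts of IRT1 and IRT2 added up as 1 gene, the log2 fold change was 0.73 (adjusted p = 0.328 from edgeR), which did not pass. Their KEGG orthology identifier, that of ZIP metal transporters, is carried by 17 loci. Of these, 11 were tested, 2 were higher and 0 lower, beside 12% and 9.31% of all tested genes. With no limit on the fold and an unadjusted p under 0.05 in edgeR's test 1 of the 11 was lower, and DESeq2 called 0 lower. No share of all genes was taken at that unadjusted threshold.

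IRO2 (LOC_Os01g72370, chromosome 1) is the bHLH transcription factor that induces genes of this path under iron deficiency. Its name comes from the list of members. The RefSeq table gives that name only as a synonym of a gene on chromosome 3 that it also names IRO3, so from that table the identity stays uncertain. DMAS1 and TOM1 had no RefSeq entry by that name on their chromosome either. It had 9 and 13 counts in WT and 6 and 42 in mre11. The mre11 libraries lay on opposite sides of WT, with replicate 2 at 8.24 times replicate 1. The log2 fold change of 0.72 ± 0.919 (standard error) had an adjusted p of 0.563 in edgeR's test and turned to -1.44 (adjusted p = 0.336) without mre11 replicate 2.

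The difference between the mre11 libraries was a pattern of its own among the members. Replicate 2 was at least 4-fold above replicate 1 for NAS1, NAS2, IRO2 and TOM1, and 3.0 times as high for IRT1. TOM1 rests on 2 and 9 counts and was not tested, so that 3 of the 7 tested members showed this gap. Of 24462 tested genes with a ratio, 150 (0.613%) showed such a 4-fold gap in this direction and 175 (0.715%) in the other. These shares cover genes of all depths, and none was taken among genes with counts as low as those of the members. A ratio as large as that of NAS2 was found in 39 genes and one as large as that of NAS1 in 47, which include the members. NAS3 went the other way, with replicate 1 at 1.64 times replicate 2, and DMAS1, NAAT1, YSL15 and IRT2 differed by less than 1.22 times. In WT, NAS1 was 3.08 times as high in replicate 1, and IRO2 was 1.09 times as high in replicate 2. NAS2 had 2 and 0 counts in WT, and TOM1 had 0 in each WT library. Replicate numbers did not pair the samples, so the WT values do not bear on the gap in mre11. The gap between the mre11 libraries was seen in the data and not tested, and its origin was not tested.

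**Figure D4:**
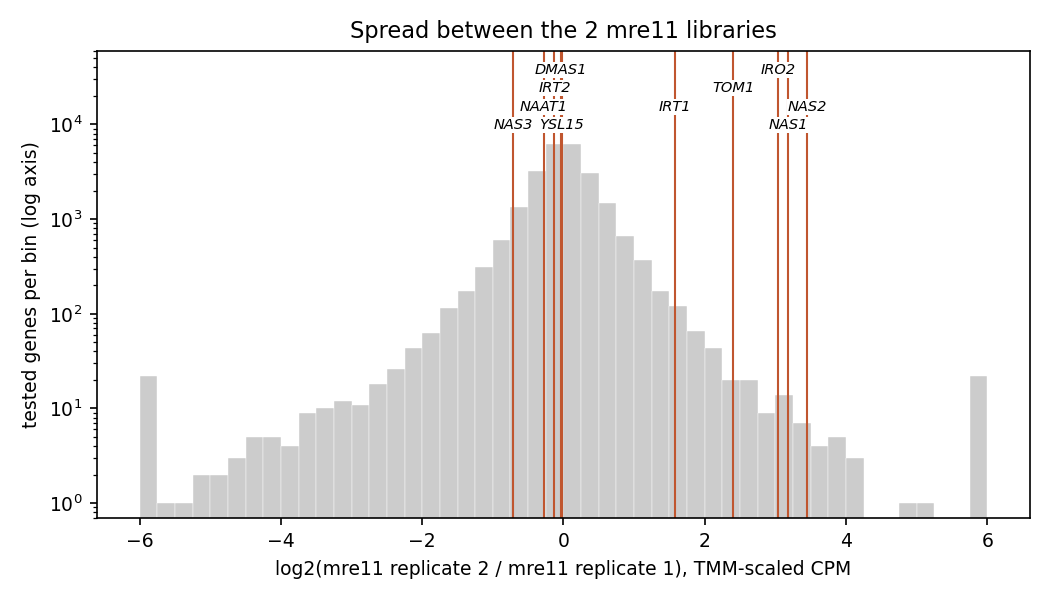
Log2 ratio of mre11 replicate 2 to mre11 replicate 1 for all tested genes (grey bars, log axis, end bins hold all values beyond 6) and for the 10 members (lines). NAS2, NAS1, IRO2 and TOM1 lie at least 4-fold to the right, as do 0.613% of tested genes, which do not include TOM1. IRT1 lies to the right by less than 4-fold, and NAS3 lies to the left of 0.

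In the order of RPKM levels, DMAS1 came first in WT with 33.4 ± 6.57 (SD, n = 2). NAAT1 with 11.2 ± 1.73 and NAS3 with 9.78 ± 2.71 (SD, n = 2) followed, and their ranges overlapped. NAS1 (0.78 ± 0.552) and IRT1 (0.55 ± 0.099) overlapped as well, and the others were at or below 0.12 RPKM in each WT library. In mre11 NAS3 with 24.96 ± 9.53 RPKM and DMAS1 with 23.3 ± 1.47 RPKM (SD, n = 2) led and overlapped. NAS2 with 5.61 ± 6.53, NAAT1 with 3.05 ± 0.544 and NAS1 with 2.49 ± 2.78 RPKM (SD, n = 2) came next and could not be ranked. The length behind the RPKM of IRO2 came to about 6440 bases, almost the whole gene model of 6965, and that of YSL15 to about 4560 of 4708. For IRT1 it was about 1510 of 5868 bases. For NAS1, NAS2, NAS3 and IRT2 the length was close to the gene model too (1410 of 1413, 1480 of 1482, 1630 of 1630 and 831 of 906 bases). Exon lengths were not used here, so levels of different genes carry this uncertainty.

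Markers of root and shoot moved as follows. Mugineic acid genes act mainly in roots, and in whole seedlings fewer cells of a type and less RNA per cell cannot be told apart. The 10 light harvesting loci, used as shoot markers, summed to 5952 and 9946 CPM in WT and 11895 and 18525 CPM in mre11. Of the 9 tested, 3 were called higher and 0 lower by edgeR (33.3% called, beside 21.3% of all genes). At an unadjusted p under 0.05 with no limit on the fold these numbers were 7 and 0, and DESeq2 called 4 and 0. No share of all genes was taken at that unadjusted threshold, so the 7 cannot be set against one. With an adjusted p under 0.05 and no limit on the fold, 37.1% of all genes passed in edgeR's test. The 10 loci used as root markers summed to 84.7 and 82.3 CPM in WT and 126 and 101 CPM in mre11. The whole of that gap was 1 ammonium transport locus, picked out after its value was seen, with 14.1 ± 3.82 CPM in WT and 46.4 ± 14.4 CPM in mre11 (SD, n = 2). Without it, the root sum was 67.9 and 70.9 CPM in WT and 69.1 and 64.4 CPM in mre11, and the groups overlapped. The means of that reduced sum were 69.4 CPM in WT and 66.7 CPM in mre11. Of the 7 tested root markers this locus was called higher and 0 lower by edgeR (14.3% called, beside 21.3% of all genes). Among all genes 9.31% were called lower, so 0 lower of 7 says little. At an unadjusted p under 0.05 and by DESeq2, 0 were lower as well. Another 2 of the 10, transporters of nitrate and of ammonium, had 0 counts in every library. The part of root and shoot shares in the values of the members was not tested.

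Other genes of iron handling were taken from GO terms of the deposited annotation, with the members left out. Of 17 tested loci for iron transport and homeostasis 2 were higher and 1 lower (17.6% called, beside 21.3% of all genes), with a median log2 fold change of 0.17, where that of all tested genes was 0.03. The lower one, LOC_Os11g01530, carries the ferric iron binding term of ferritins, which store iron in plastids. It had 3029 and 4447 counts in WT and 2116 and 1894 in mre11, with a log2 fold change of -1.36 ± 0.142 (standard error) and an adjusted p of 0.00175 in edgeR's test. Of the 3 tested loci with this term it was called lower by edgeR and 0 were called higher (33.3% called, beside 21.3% of all genes). At an unadjusted p under 0.05 and by DESeq2, 0 were higher as well, and the median was -0.71. A second ferritin locus with the same identifier had 2261 and 2704 counts in WT and 2162 and 2058 in mre11, a log2 fold change of -0.71 (adjusted p = 0.0115), which is under 2-fold. How reads that match both loci were counted is not given in the sources used here either. The larger rise was in LOC_Os06g37010, annotated with iron and zinc transport and with the identifier of IRT1 and IRT2. It had 71 and 96 counts in WT and 333 and 345 in mre11, with a log2 fold change of 1.56 ± 0.216 (standard error) and an adjusted p of 0.00363 in edgeR's test.

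**Figure D5:**
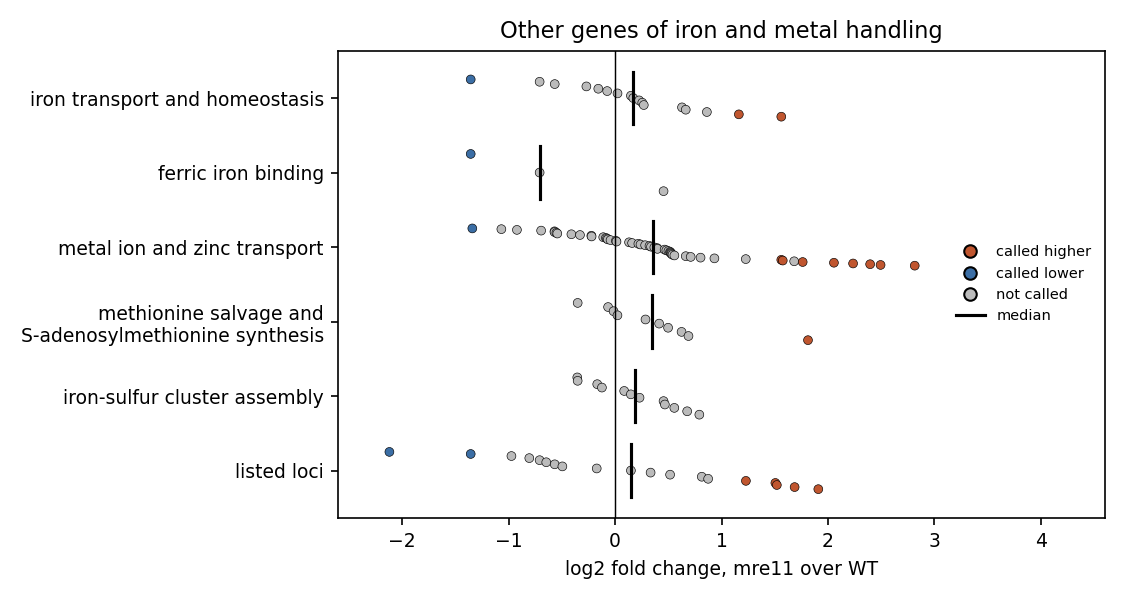
Log2 fold change, mre11 over WT, of the tested genes in each list, spread vertically only to separate them. Colours mark genes called higher or lower, and black lines mark medians, which lie at 0.17 for iron transport and homeostasis and at 0.35 for metal ion and zinc transport.

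The supply of S-adenosylmethionine, from which NAS makes nicotianamine, was described by 13 loci of methionine salvage and of S-adenosylmethionine synthesis. Of 10 tested, 1 was higher and 0 lower in edgeR's test (10% called, beside 21.3% of all genes). Of the 10, 7 lay above 0, and the median log2 fold change was 0.35, where that of all tested genes was 0.03. At an unadjusted p under 0.05 with no limit on the fold 3 were higher and 0 lower, a threshold at which no share of all genes was taken. DESeq2 called 1 higher and 0 lower. The higher one, LOC_Os10g28350, is annotated as an acireductone dioxygenase of methionine salvage. It had 78 and 76 counts in WT and 515 and 262 in mre11, with a log2 fold change of 1.81 ± 0.317 (standard error) and an adjusted p of 0.00736 in edgeR's test. Its mean in WT was 5.69 CPM, against 100 CPM for another locus with the same identifier. That locus had a log2 fold change of 0.29 (adjusted p = 0.129 in edgeR's test). The most abundant of the 13 loci, with 959 CPM in WT, had -0.35 (adjusted p = 0.156 in the same test). Among 52 tested loci for metal ion and zinc transport, 8 were higher and 1 lower (17.3%, beside 21.3% of all genes), with a median of 0.35. Of 12 tested loci for iron-sulfur cluster assembly edgeR and DESeq2 each called 0, where edgeR called 21.3% of all genes. At an unadjusted p under 0.05 with no limit on the fold 1 was higher, and the median was 0.19. Another list of 22 loci came from general knowledge of rice iron handling, and 11 of them carry an iron, zinc or metal term in the files. It overlaps the lists above, since 6 of the 22 are also in those, the ferritin loci among them. Of the 19 tested, 5 were higher and 2 lower (36.8% called, beside 21.3% of all genes). The lower ones include LOC_Os11g01530, already described, so its call is not a new one. Their median log2 fold change was 0.15, with a range from -2.12 to 1.91.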

How the data were processed

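RNA-seq of 2 WT and 2 mre11 samples was analysed. The authors aligned 150-base reads with the rice pseudomolecules of version 7.0 and deposited HTSeq (0.6.1) counts per gene model, with RPKM values. The aligner, the strand setting and the rule for reads on several loci are not given in the sources used here. The deposited RPKM values imply lengths shorter than the listed ones for most genes, and were used to compare levels between genes. Counts were tested with edgeR 4.0.16 in R 4.3.3 (filterByExpr, TMM, glmQLFit, glmQLFTest, genotype only). Standard errors are the log2 fold change divided by the root of F. The fit was tried on simulated counts with known changes and the same dispersion for every gene. That trial does not bear on members with a wide gap between replicates.

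The members and lists were chosen with earlier results of these data known. All members are named, and from the other lists at most 2 risen and 2 fallen loci, since 0 identifiers matched the RefSeq table (assembly ASM3414082v1). By synonym and chromosome 7 members had a RefSeq entry. No sequences were used, and the planned search for promoter motifs was not run. The list for nicotianamine synthesis held no locus beyond the members. Alternatives were DESeq2 1.42.0, limma 3.58.1 on log2 RPKM, and other scalings, filters, thresholds, prior counts, a replicate block and left-out libraries.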

Additional observations from a re-analysis of the deposited data

How the results depend on the processing

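The call of NAAT1 held in every alternative, and DMAS1 stayed lower and under 2-fold. Without the limit on the fold, calls numbered 4594 higher and 4483 lower, with 2 members lower (NAAT1 and DMAS1), and 18 genes of the other pathway lists higher and 8 lower. At an adjusted p under 0.01, 1614 genes were higher and 1493 lower, and 0 members higher, where an unadjusted p under 0.05 left 2. Limma on log2(RPKM + 1), which shrinks low genes, called 1336 genes lower and 1 member higher, NAS2 having 2.17 (adjusted p = 0.0657 from limma). With NAS1 and NAS2, and IRT1 and IRT2, each summed, 1 member was higher. Leaving out 1 library gave 1668 to 2626 genes higher and 1493 to 2275 lower, with the lowest numbers when a WT library was omitted, and 0 to 2 members higher (0 without WT replicate 1 or WT replicate 2). Over these fits NAS2 ranged from 4.05 to 10.17, NAS1 from -0.75 to 2.53, IRT1 from -0.72 to 0.86 and IRO2 from -1.44 to 1.59, with the negative values without mre11 replicate 2 and the cause not tested. The replicate block gave 2 members higher and 1 lower, as without it. Replicate numbers did not pair the samples (r = -0.0035 between deviations, across genes). The share of calls that were higher was 56.3% after TMM and 68.9% with the library size alone, where the median of all genes was 0.19, and the members called were the same. For TOM1, YSL15, IRT1, IRT2 and IRO2, depth limits the result, with under 50 counts in every library.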
